A study of Mus musculus with 10 samples.

Results

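The vehicle-treated ovariectomized (OVX) groups were compared here, to ask how the ventral hippocampus (vHpc) transcriptome of mice with 1 Met copy of BDNF differed from that of WT mice without hormone replacement. The comparison used 5 of the 10 mouse libraries of the series: replicates 1, 2 and 3 of the OVX Het-Met mice (3 libraries) and replicates 1 and 3 of the OVX WT mice (2 libraries), chosen by their column names. All were female mice of the C57BL/6 strain, ovariectomized at 70 to 80 days of age, left to recover for 2 weeks and given 0.1% ethanol in the drinking water for 6 weeks. Het-Met mice were heterozygous for the BDNF Val66Met knock-in allele and were bred in-house with the WT mice. The other 5 libraries came from mice of the same genotypes, OVX and treated in the same way but with 300 nM 17β-estradiol (E2, 0.7 µg per day) in the solution. Each library held RNA pooled from 2 animals, so the spread between libraries is that between pools, and all mice lacked ovaries.

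BDNF is a neurotrophin that neurons release on activity, and it acts on synapses through the receptor TrkB. The Val66Met change lies in the part of the precursor that is removed from the mature protein, and it is known for reducing the activity-dependent release of BDNF. The vHpc is the part of the hippocampus tied to anxiety and the stress response.

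Values are CPM, a gene's reads scaled to 1000000 reads counted on genes per library. The 5 libraries held between 19820184 and 21614299 such reads, and 3 reads were worth between 0.139 and 0.151 CPM. Differences are Het-Met minus WT on the log2(CPM + 0.5) scale, which understates the change of low genes, and tests are limma's, with p-values adjusted over all 15081 genes tested by the Benjamini-Hochberg method. A call needed an adjusted p-value below 0.05 together with a fold change of more than 1.3. With 3 libraries against 2, an exact permutation test of a single gene cannot give a p-value under 0.1. Features of single libraries touch several results. WT replicate 1 had the lowest sum over 22 choroid plexus markers, 390.0 CPM, against 1684 CPM in WT replicate 3 and 4212, 2209 and 2844 CPM in Het-Met mice. WT replicate 3 held pituitary transcripts, with 41.4 CPM of growth hormone (Gh) and 39.5 CPM of prolactin (Prl), against at most 6.97 CPM of either in the other vehicle libraries. Het-Met replicate 1 was shifted towards short transcripts, as described below with the ribosomal protein genes. Leaving out any 1 vehicle library moved the counts of many gene lists, and some of these moves are given beside the counts. A fit that leaves out a WT library has 1 WT library under vehicle, so its counts rest on that library.

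Under vehicle, 1 gene of 15081 (0.00663%) was called between genotypes, the cytosolic phospholipase A2 gene Pla2g4e (ENSMUSG00000050211.14), which was higher in OVX Het-Met mice. Its product, cPLA2 epsilon, transfers acyl chains between phospholipids to make N-acyl phosphatidylethanolamines, the precursors of N-acylethanolamines such as anandamide. Pla2g4e lies on the minus strand of chromosome 2 of GRCm38, from 120166412 to 120245335, 10.44 Mb from Bdnf. It stood at 13.1 and 11.7 CPM in WT and at 33.0, 25.3 and 30.5 CPM in Het-Met libraries, so that the lowest Het-Met library was well above the highest WT library. The means were 12.4 ± 0.986 CPM (SD, n = 2) and 29.6 ± 3.92 CPM (SD, n = 3), a ratio of 2.38. The log2 difference was 1.21 (SE 0.11, adjusted p = 0.000230, limma), and it was called in every one of the alternative settings, with differences between 1.13 and 1.32. Pla2g4e was also higher in Het-Met mice under E2, in 5 libraries that the vehicle comparison did not use. There it stood at 20.1 and 20.2 CPM in WT and at 35.4, 36.5 and 38.7 CPM in Het-Met libraries, a log2 difference of 0.85 (SE 0.11, adjusted p = 0.0204, limma). That call under E2 was not kept in every alternative setting, with differences between 0.81 and 0.88. Of the 7 phospholipases A2 listed, 4 were too low to test. Pla2g4a, which releases arachidonic acid from membranes, stood at 1.80 and 2.43 CPM in WT and 2.80, 3.28 and 2.27 CPM in Het-Met libraries, with overlapping groups. Pla2g6, a calcium-independent member, also overlapped, with 27.9 and 21.4 CPM in WT and 25.0, 26.8 and 26.4 CPM in Het-Met libraries.

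The 250 bases before the start of Pla2g4e and before the third listed start of Bdnf are shown because these genes are the called gene and the gene that carries the allele. Among the Bdnf starts, the third was chosen because its window held the half-site marked here. Capitals mark the half-site TGACG (or CGTCA on the other strand) of the cAMP response element, through which CREB acts on Bdnf. The sequences are from RefSeq on GRCm38.p6, 5′ to 3′ on the strand of the gene, at chr2:120245336-120245585 (minus strand) for Pla2g4e and chr2:109692186-109692435 (plus strand) for Bdnf.
Pla2g4e: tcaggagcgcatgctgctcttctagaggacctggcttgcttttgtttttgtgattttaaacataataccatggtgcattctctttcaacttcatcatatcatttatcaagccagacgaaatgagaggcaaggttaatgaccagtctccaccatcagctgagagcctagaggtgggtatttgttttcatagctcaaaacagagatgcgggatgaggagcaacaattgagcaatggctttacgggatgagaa
Bdnf: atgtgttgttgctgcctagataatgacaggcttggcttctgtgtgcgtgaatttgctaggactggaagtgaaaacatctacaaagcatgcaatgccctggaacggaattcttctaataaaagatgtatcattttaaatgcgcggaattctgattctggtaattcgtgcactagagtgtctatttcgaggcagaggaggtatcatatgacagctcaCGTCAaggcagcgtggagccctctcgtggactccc
The half-site was found before 1 of the 7 listed Bdnf starts (14.3%), at position 216 of the window shown, and before 0 of 1 Pla2g4e and 0 of 2 Ntf3 starts. Over all listed promoters, 5836 of 32851 (17.8%) held it. GC content was 43.2% for the Pla2g4e window and 45.6% for the Bdnf window.

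Bdnf itself and its sister neurotrophin Ntf3 differed in opposite directions, and neither was called. Bdnf (chromosome 2, 109674700 to 109727007, plus strand) stood at 39.0 and 45.2 CPM in WT and at 32.9, 31.7 and 38.4 CPM in Het-Met libraries. All 3 Het-Met libraries were below both WT libraries, the nearest pair being 38.4 and 39.0 CPM. The log2 difference was -0.29 (SE 0.11, adjusted p = 0.418, limma), and under E2 it was -0.19 (SE 0.11, adjusted p = 0.511). Ntf3, which encodes neurotrophin-3, the ligand of TrkC (chromosome 6, 126101412 to 126166910), stood at 5.41 and 4.61 CPM in WT and at 9.25, 9.54 and 9.51 CPM in Het-Met libraries. The groups did not overlap, the ratio of means was 1.88 and the log2 difference was 0.85 (SE 0.13). Its adjusted p-value, 0.0949 (limma), was the next smallest of all genes after that of Pla2g4e. Under E2 it stood at 5.34 and 6.23 CPM in WT and at 7.98, 8.53 and 7.40 CPM in Het-Met libraries, a log2 difference of 0.43 (adjusted p = 0.335, limma).

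Neurotrophin ligands, receptors, sorting receptors and processing enzymes formed a list of 21 genes, of which 19 were tested. At an unadjusted p-value under 0.05, 1 (5.26%) was higher and 5 (26.3%) were lower in Het-Met mice, against 5.85% higher and 4.83% lower over all genes tested. Without WT replicate 3, 2 were lower. The median log2 difference of the list was -0.08, against 0.02 over all genes. Sorcs1, a sorting receptor of the Vps10p family, stood at 19.99 and 21.1 CPM in WT and at 15.9, 16.4 and 13.9 CPM in Het-Met libraries. Its relative Sorcs3 stood at 55.5 and 57.2 CPM against 45.2, 45.0 and 50.4 CPM. Neither overlapped between genotypes, with log2 differences of -0.41 and -0.27. The prohormone convertase gene Pcsk1 did overlap, with 15.4 and 20.2 CPM against 11.7, 15.5 and 10.5 CPM. Ntrk2, which encodes TrkB, was spread as widely within groups as between them, with 635 and 804 CPM in WT and 624, 787 and 626 CPM in Het-Met libraries. The other 2 genes, among them Ntf5, were too low to test.

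**Figure D1:**
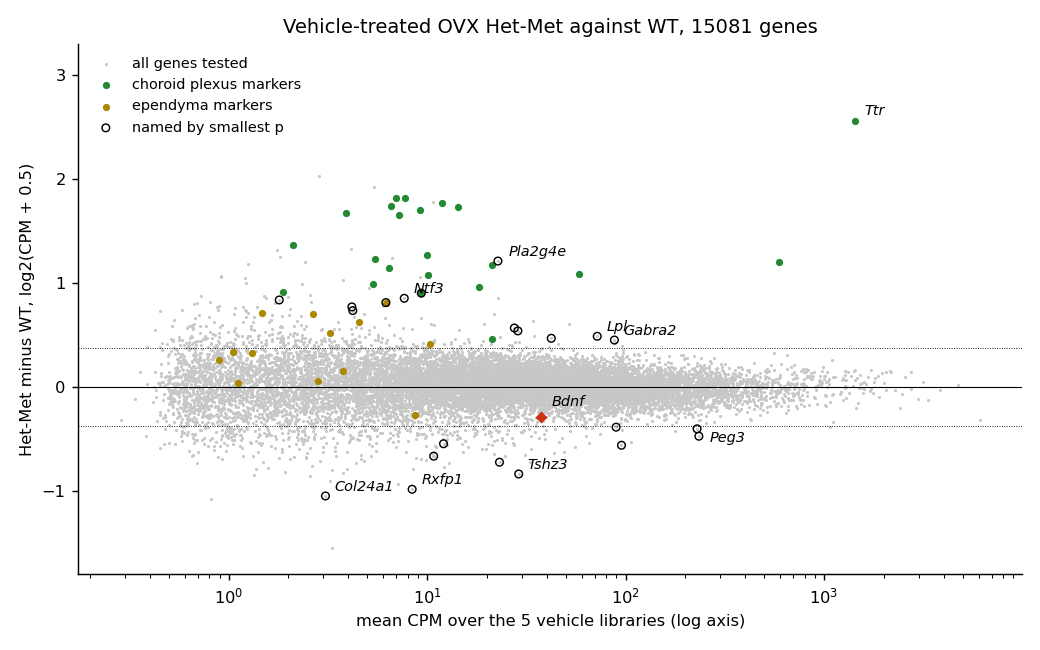
Each point is a gene, placed by its mean CPM over the 5 vehicle libraries (log axis) and its log2 difference, Het-Met minus WT; dotted lines mark a fold of 1.3, green points choroid plexus and gold points ependyma markers, circles 22 of the named genes and the red diamond Bdnf. Pla2g4e stands at 1.21, and the choroid plexus markers form a group with a median of 1.25.

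Below the called gene, 240 genes (1.59%) were higher and 256 (1.7%) lower in Het-Met mice by a fold above 1.3 and an unadjusted p-value under 0.05. Among all genes, 2230 (14.8%) had all 3 Het-Met libraries above both WT libraries and 1492 (9.89%) had all 3 below. Without WT replicate 1, 110 of the 240 and 151 of the 256 remained past both limits, and without Het-Met replicate 1, 139 and 129 did. The 240 included all 22 choroid plexus and 6 ependyma markers. The genes named next are those with the smallest p-values that did not overlap, so that their lack of overlap was used to choose them.

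After Pla2g4e and Ntf3, 10 more higher genes were named by the rule. Lpl, lipoprotein lipase, which frees fatty acids from triglycerides, stood at 55.8 and 59.5 CPM in WT and at 93.4, 71.0 and 80.2 CPM in Het-Met libraries. Its log2 difference was 0.49 under vehicle and 0.30 under E2. Myoc, the secreted glycoprotein myocilin, is on the meninges and fibroblast list. It stood at 20.9 and 24.03 CPM in WT and at 34.2, 33.4 and 30.9 CPM in Het-Met libraries. The groups did not overlap, and the log2 difference was 0.54. Gabra2, the α2 subunit of the GABA-A receptor, stood at 77.0 and 66.8 CPM in WT and at 103, 102 and 91.1 CPM in Het-Met libraries, a log2 difference of 0.45. Myoc and Gabra2 were called under E2, as described below.

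Tspan33, a tetraspanin, stood at 33.5 and 34.8 CPM in WT and at 52.6, 45.5 and 44.7 CPM in Het-Met libraries. The noncoding RNA Pantr1 stood at 23.5 and 19.1 CPM against 31.3, 30.3 and 33.4 CPM, and Dyx1c1, a dynein assembly factor of motile cilia, at 3.24 and 2.53 CPM against 5.22, 4.89 and 5.19 CPM. Their log2 differences were 0.47, 0.57 and 0.74. The small nucleolar RNA host gene Snhg7 stood at 3.10 and 2.48 CPM in WT and at 5.41, 4.94 and 4.92 CPM in Het-Met libraries, a log2 difference of 0.77. Mthfsl stood at 1.16 and 0.942 CPM against 2.42, 2.62 and 1.81 CPM, and is uncertain because it can share reads with its close copy Mthfs. The last 2 named genes are, like Myoc, on lists of markers of other cells. Rsph1, a radial spoke protein of motile cilia on the ependyma list, stood at 3.38 and 4.86 CPM in WT and at 8.63, 6.16 and 7.93 CPM in Het-Met libraries. Slc2a12, a glucose transporter on the choroid plexus list, stood at 4.72 and 7.38 CPM against 12.9, 10.7 and 10.99 CPM. Adjusted p-values of these 10 genes lay between 0.214 and 0.235 (limma).

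Of the 12 lower genes named by the rule, Peg3, Tshz3 and Slc17a6 had the smallest p-values. Peg3, an imprinted zinc finger gene, stood at 298 and 264 CPM in WT and at 189.9, 214 and 203 CPM in Het-Met libraries. Its log2 difference was -0.47 (adjusted p = 0.139, limma). Tshz3, a teashirt zinc finger gene of projection neurons, stood at 44.3 and 34.9 CPM in WT and at 20.9, 24.1 and 20.5 CPM in Het-Met libraries, a ratio of means of 0.552. Its relative Tshz2 stood at 109 and 126 CPM against 70.2, 98.6 and 72.6 CPM. Their log2 differences were -0.84 and -0.56.

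Slc17a6, which encodes the vesicular glutamate transporter VGLUT2, stood at 28.4 and 32.5 CPM in WT and at 21.4, 17.8 and 15.8 CPM in Het-Met libraries, a log2 difference of -0.72 (adjusted p = 0.139, limma). Synj2, a phosphoinositide phosphatase of vesicle recycling, was tight within groups, at 105 and 104 CPM against 76.7, 85.8 and 76.9 CPM. Rxfp1, the relaxin receptor, stood at 15.2 and 9.32 CPM in WT and at 6.78, 5.20 and 5.47 CPM in Het-Met libraries, a log2 difference of -0.98. Col24a1, a fibrillar collagen of the extracellular matrix, stood at 5.74 and 3.62 CPM against 2.56, 1.46 and 1.95 CPM. Arhgap32, a GTPase-activating protein, Glt1d1, a glycosyltransferase-domain gene, and Dpy19l4 had log2 differences of -0.40, -0.55 and -0.67. Adjusted p-values of the 12 lower genes of the rule lay between 0.139 and 0.215 (limma). With DESeq2 on the recovered reads, 34 genes were called, among them 9 of the 12 named higher and all 12 named lower genes. These genes were chosen by p-value and lack of overlap in the same libraries, so the DESeq2 calls are no independent check. With edgeR on the same reads, 1 gene was called, Pla2g4e.

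**Figure D2:**
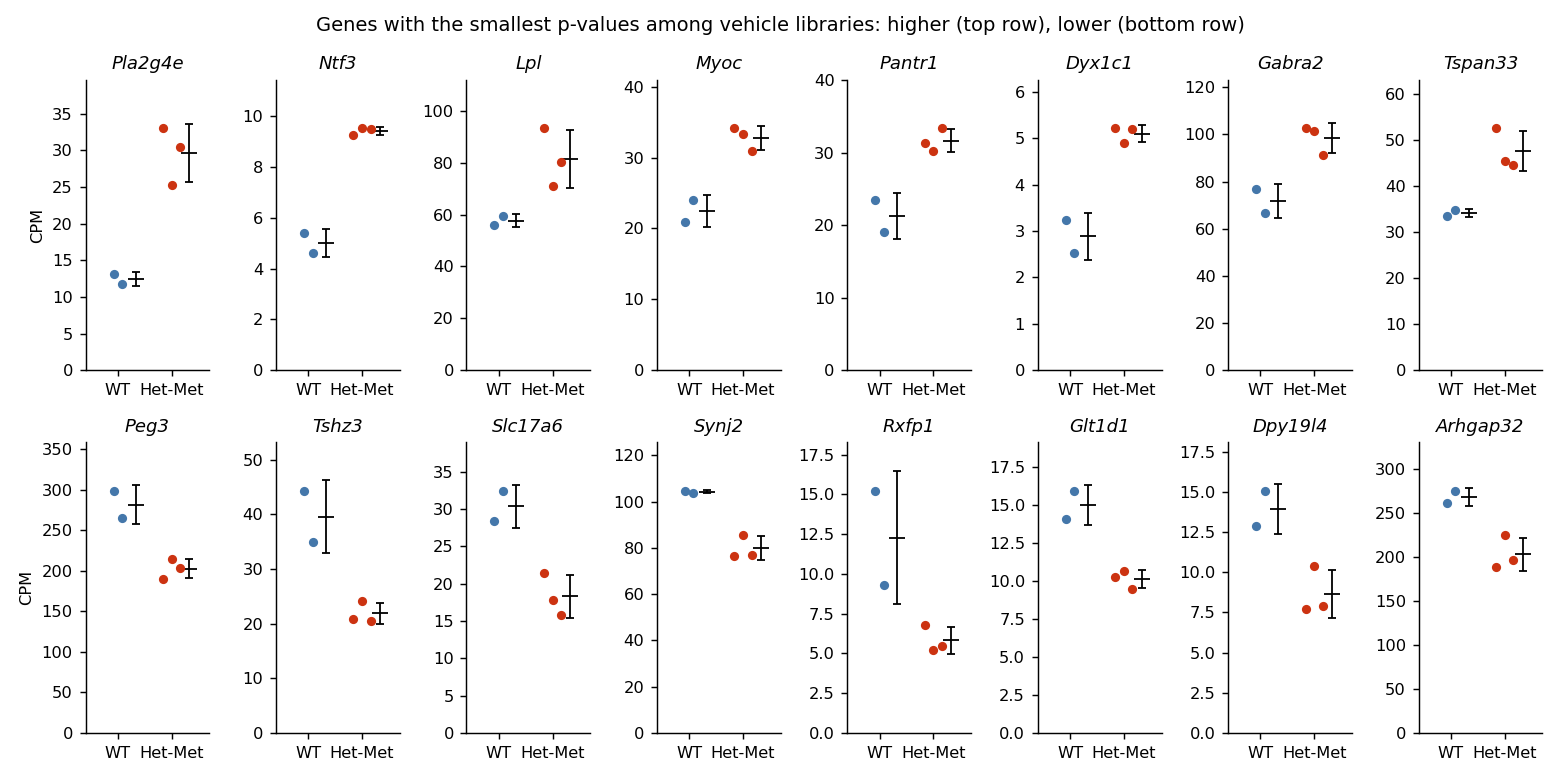
CPM of 16 of the named genes in each vehicle library, WT in blue and Het-Met in red, with a bar for the mean and its SD (n = 2 and n = 3). Pla2g4e moves from 11.7 and 13.1 CPM to between 25.3 and 33.0 CPM, and Rxfp1 shows the wide WT spread of 9.32 and 15.2 CPM.

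The E2 libraries hold the same 2 genotypes and share no library with the vehicle comparison, only its estimate of the spread. Over all genes, 949 (6.29%) were higher and 809 (5.36%) lower in Het-Met mice under E2 at an unadjusted p-value under 0.05. Of the 12 named higher genes, 8 had a positive difference under E2 and 7 passed that p-value upwards, while 2 passed it downwards. Pla2g4e, Myoc and Gabra2 were called. None of these 3 calls under E2 was kept in every alternative setting. Over the settings their log2 differences under E2 lay between 0.81 and 0.88, 0.61 and 0.89, and 0.45 and 0.70. Myoc stood at 13.1 and 15.99 CPM in WT and at 24.6, 23.4 and 26.2 CPM in Het-Met libraries under E2, a log2 difference of 0.75 (adjusted p = 0.0356, limma). Gabra2 stood at 60.8 and 63.4 CPM against 84.3, 103 and 98.7 CPM, a log2 difference of 0.61 (adjusted p = 0.0418). For these genes the Het-Met libraries were above the WT libraries under both treatments. The 2 that passed downwards were the marker genes Rsph1 and Slc2a12, with log2 differences of -0.59 and -1.17.

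The named lower genes did not hold their direction under E2 as a group. Of the 12, 7 had a positive and 5 a negative difference there. Synj2 was the 1 gene past the unadjusted p-value downwards, with a log2 difference of -0.27, while 3 passed it upwards, among them Slc17a6 and Col24a1, with 0.29 and 0.62. Of the wider sets, 109 of the 240 higher genes had a positive difference under E2, and 175 of the 256 lower genes a negative one, against 57.3% positive over all genes tested.

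**Figure D3:**
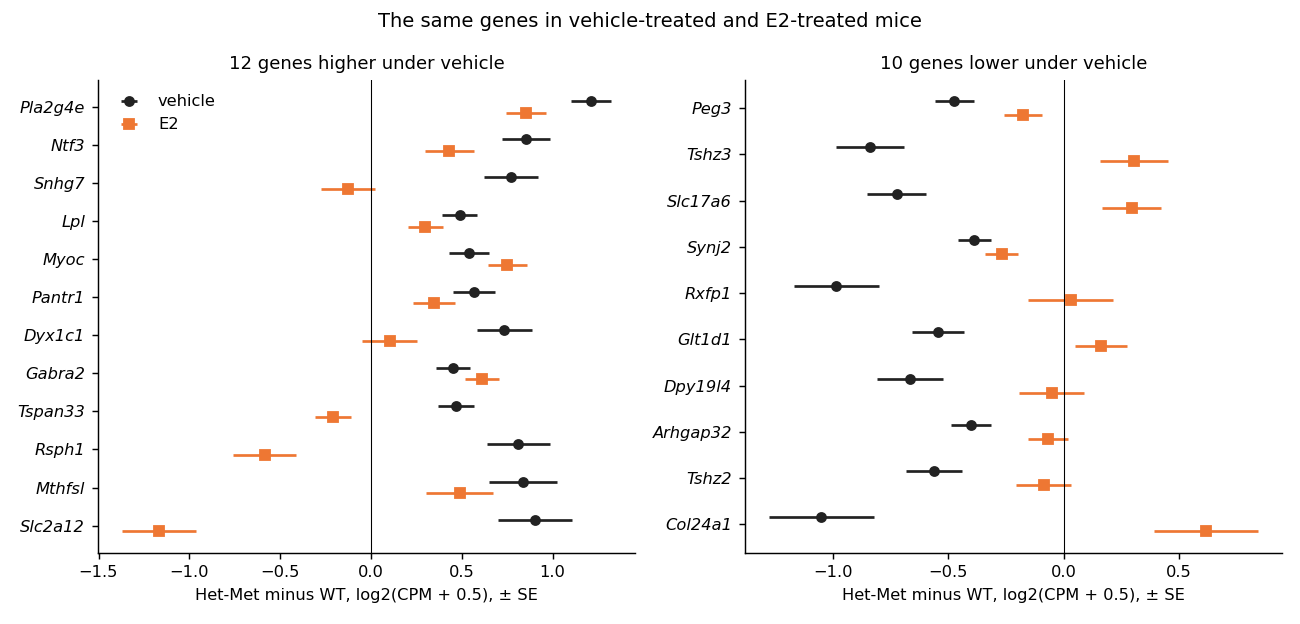
Log2 difference, Het-Met minus WT, with its SE for the 12 named higher and 10 of the lower genes, under vehicle (black circles) and under E2 (orange squares). Pla2g4e, Myoc and Gabra2 lie to the same side under both treatments, and Slc2a12 lies at 0.90 and -1.17.

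Pla2g4e and Bdnf lie on the same chromosome, so the genes around Bdnf were counted. Within 20 Mb of Bdnf, 270 genes were tested, of which 27 were higher and 23 lower at an unadjusted p-value under 0.05, or 10% and 8.52%, against 5.85% and 4.83% over all genes. In 49 (18.1%) all Het-Met libraries were above and in 41 (15.2%) below both WT libraries, against 14.8% and 9.89% over all genes. Without Het-Met replicate 1, 13 were higher and 24 lower, and without WT replicate 3, 15 and 22. Their median log2 difference was -0.02. After Pla2g4e, the smallest p-values were those of Meis2, Srp14, Exd1, Polr1b and Spg11. Meis2, a homeobox gene 6.136 Mb away, stood at 88.2 and 87.7 CPM in WT and at 70.6, 69.6 and 54.0 CPM in Het-Met libraries. Srp14, part of the signal recognition particle and 8.749 Mb away, stood at 75.8 and 84.0 CPM against 124, 95.4 and 97.3 CPM. Neither overlapped, with log2 differences of -0.45 and 0.39. Exd1 was near 1 CPM in WT, at 0.972 and 0.743 CPM, and at 1.90, 1.51 and 2.55 CPM in Het-Met libraries. Polr1b, an RNA polymerase I subunit, and Spg11, a lysosomal protein, had log2 differences of -0.41 and -0.34.

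Genes of the synapse and of excitability leaned lower in Het-Met mice, and none was called under vehicle. At an unadjusted p-value under 0.05, 9 of 35 potassium channels, 7 of 21 postsynaptic scaffolds, 7 of 34 vesicle release genes, 7 of 31 adhesion genes and 4 of 15 sodium and calcium channels were lower. These are 25.7%, 33.3%, 20.6%, 22.6% and 26.7% of the lists, against 4.83% over all genes tested. Against these, 1 vesicle release gene was higher. The medians were -0.11, -0.16, -0.09, -0.12 and -0.13. Without WT replicate 3, 0 potassium channels were lower and 1 was higher, and without Het-Met replicate 1, 3 were lower. Of the scaffolds, 2 were lower without WT replicate 3 and 4 without Het-Met replicate 1, and of the sodium and calcium channels 2 were lower without Het-Met replicate 1 and 8 without Het-Met replicate 3. Of the adhesion genes, 1 was lower and 1 higher without WT replicate 3, 1 was lower without Het-Met replicate 1, and 11 were lower without WT replicate 1. Of the vesicle release genes, 4 were lower without either WT replicate 3 or Het-Met replicate 1. Their transcripts are long, with a median exon length of 5152 bases for potassium channels, 9816 for scaffolds and 11418 for sodium and calcium channels, against 4437 over all genes. With the gene length trend of each library removed, the counts lower were 6 potassium channels, 3 scaffolds, 6 vesicle release genes, 4 adhesion genes and 0 sodium and calcium channels. Over all genes, 562 of 14977 were lower in that setting.

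Among the channels, Kcnq3, an M-current subunit that restrains firing, stood at 30.3 and 35.4 CPM in WT and at 15.9, 27.1 and 25.97 CPM in Het-Met libraries. Kcnma1, the BK channel, stood at 103 and 123 CPM against 71.6, 102 and 81.5 CPM, the nearest pair being 102 and 103 CPM. Their log2 differences were -0.54 and -0.42 under vehicle, and -0.61 and -0.46 under E2. Cacna1e, the R-type calcium channel, stood at 504 and 450.1 CPM against 332, 409.5 and 420.5 CPM, and Scn1a, the sodium channel of fast-spiking interneurons, at 142 and 151 CPM against 125, 134 and 115 CPM. In each of these 4 genes the Het-Met libraries were all below the WT libraries, as in 9.89% of all genes. Genes named from the lists were mostly those with the smallest p-values of their list in these same libraries, which favours a lack of overlap.

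At the synapse, Homer1, Magi1, Lrrc7 and Dlg1 were the scaffolds with the smallest p-values. Homer1, which links metabotropic glutamate receptors to calcium stores, stood at 89.3 and 110.4 CPM in WT and at 82.9, 89.3 and 80.4 CPM in Het-Met libraries. Magi1 stood at 99.2 and 97.5 CPM against 86.0, 78.1 and 84.0 CPM without overlap. Pclo, the active zone protein piccolo, stood at 479 and 492 CPM against 349, 425 and 395 CPM, and Igsf9b, an adhesion molecule of inhibitory synapses, at 10.9 and 9.12 CPM against 3.13, 7.06 and 5.52 CPM.

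Of 11 NMDA and AMPA receptor subunits, 0 passed the unadjusted p-value in either direction, with a median of -0.13. Grin2b, an NMDA receptor subunit, was spread widely, at 39.4 and 69.3 CPM in WT and 22.4, 57.9 and 28.8 CPM in Het-Met libraries. Gria2, the subunit that keeps AMPA receptors closed to calcium, stood at 963 and 1012 CPM against 849, 899 and 901 CPM without overlap, a log2 difference of -0.16. Of 14 kainate, delta and metabotropic receptors 4 (28.6%) were lower (2 without Het-Met replicate 1 or Het-Met replicate 3). Of 13 GABA-A subunits 1 (7.69%) was higher (Gabra2) and 2 (15.4%) were lower, against 5.85% higher and 4.83% lower over all genes. Gabrb2, a β2 subunit and 1 of the lower 2, stood at 286 and 347 CPM against 267, 281 and 263 CPM without overlap. Of 8 genes of GABA synthesis, transport and GABA-B receptors 0 passed in either direction. Of 23 serotonin, muscarinic and adrenergic receptors 1 (4.35%) was higher and 0 lower, and 3 were lower without Het-Met replicate 2. The higher gene was Htr3a, the serotonin-gated channel, at 16.7 and 17.8 CPM against 24.004, 21.9 and 20.3 CPM without overlap.

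**Figure D4:**
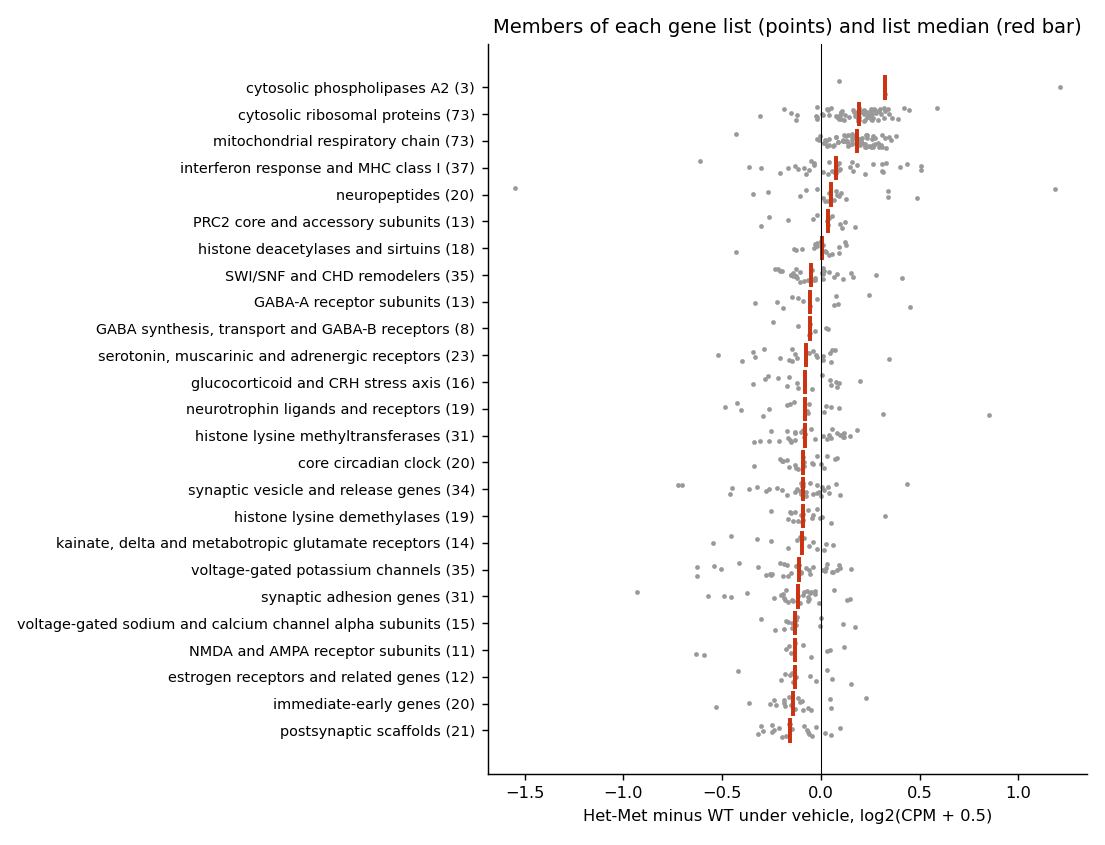
Log2 difference, Het-Met minus WT, of every tested member (points) of 25 pathway lists, with the list median as a red bar. Ribosomal and respiratory chain genes sit to the right, with medians of 0.19 and 0.18, and postsynaptic scaffolds to the left, with -0.16.

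Ribosomal protein and respiratory chain genes leaned the other way. Of 73 tested ribosomal protein genes, 17 (23.3%) were higher and 0 lower at an unadjusted p-value under 0.05, against 5.85% higher over all genes. All Het-Met libraries were above both WT libraries in 33 of them (45.2%), against 14.8% over all genes. Of 73 respiratory chain genes, 26 (35.6%) were higher and 1 lower. Rps15, of the small ribosomal subunit, stood at 179 and 171 CPM in WT and at 224, 212 and 199 CPM in Het-Met libraries, and Ndufa13, of complex I, at 98.5 and 94.9 CPM against 135, 114 and 110.1 CPM. Het-Met replicate 1 was the highest library in both. Summed over the ribosomal list, the libraries stood at 2769 and 2611 CPM in WT and at 3347, 2961 and 2967 CPM in Het-Met mice. For the respiratory list the sums were 8263 and 8225 CPM against 10126, 8922 and 8304 CPM. Without Het-Met replicate 1, 4 ribosomal genes were higher and 1 lower, and 10 respiratory genes were higher and 1 lower. Without WT replicate 3, the counts were 9 higher and 2 lower for the ribosomal and 7 higher and 0 lower for the respiratory list, and without Het-Met replicate 3, 46 respiratory genes were higher.

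These genes are short, with median exon lengths of 1770 and 1756 bases, and differences followed length over all genes. In 5 bins of equal size, from the genes with the shortest to those with the longest transcripts, the median log2 differences were 0.11, 0.06, 0.03, -0.01 and -0.08. Across 14977 genes, which are not independent replicates, Spearman's rho with length was -0.392, and under E2 it was -0.296. The deviation of the shortest bin was largest in Het-Met replicate 1, at 0.16, against 0.01 and 0.01 in the other Het-Met libraries and -0.02 and -0.09 in WT. In the shortest bin 27.1% of genes were higher without overlap and 4.04% lower, and in the longest 4.77% and 21.996%. With the length trend removed, 3 ribosomal and 6 respiratory genes were higher, with medians of 0.11 and 0.07. The part of transcript length in the results for these lists and for the synaptic lists was not tested further.

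**Figure D5:**
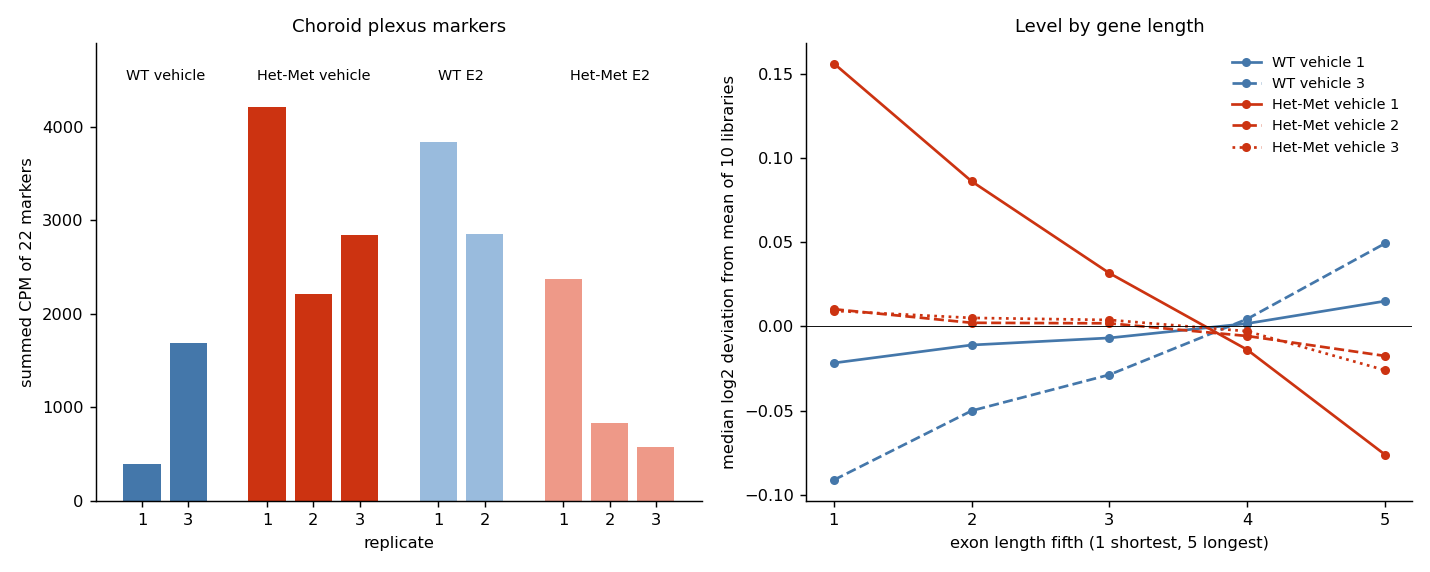
Left, bars of the summed CPM of 22 choroid plexus markers in each of the 10 libraries; right, the median log2 deviation of each vehicle library in 5 bins of genes by exon length. WT replicate 1 under vehicle is the lowest bar on the left, at 390.0 CPM, and Het-Met replicate 1 is highest on the right in the shortest bin at 0.16.

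No chromatin gene was called. Past the unadjusted p-value, lower genes outnumbered higher ones in each of the 5 lists, but by few genes. By sign alone, the Polycomb list had 8 higher and 5 lower members, the deacetylases 9 and 9, and the other lists more lower ones. The Polycomb repressive complex 2, which places the repressive mark H3K27me3, had 0 of 13 members higher and 2 (15.4%) lower at an unadjusted p-value under 0.05, with a median of 0.03, against 4.83% lower over all genes. Eed, its core subunit, stood at 13.2 and 16.1 CPM in WT and at 11.9, 12.1 and 11.2 CPM in Het-Met libraries. Of 31 histone lysine methyltransferases, 1 was higher and 4 (12.9%) lower, among them Kmt2a, at 348 and 290.0 CPM against 218, 254 and 286 CPM, and Kmt2e, at 184 and 176 CPM against 128, 148 and 161 CPM. The count lower was 1 without Het-Met replicate 1 and 8 without WT replicate 3. Their median of -0.08 turned to 0.02 with the length trend removed. The 1 that was higher, Smyd2, stood at 54.0 and 56.5 CPM against 66.9, 60.5 and 60.9 CPM. Of 18 deacetylases 0 were higher and 1 (5.56%) lower, Hdac4, with 20.4 and 29.6 CPM against 14.8, 21.9 and 18.4 CPM, which overlapped. Of 35 SWI/SNF and CHD remodelers 2 were higher and 3 (8.57%) lower, with 1 lower without Het-Met replicate 1 and 6 without Het-Met replicate 3. With the length trend removed, 2 remodelers were higher and 0 lower. Of 19 demethylases 0 were higher and 1 (5.26%) lower, with 4 lower without Het-Met replicate 3. In 25.7% of the remodelers and 26.3% of the demethylases all Het-Met libraries were below both WT libraries, against 9.89% over all genes.

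No hormone, stress or clock gene was called. Of 12 estrogen receptor and related genes 0 were higher and 2 (16.7%) lower, of 16 glucocorticoid and CRH genes 0 and 2 (12.5%), and of 20 clock genes 0 and 2 (10%), against 4.83% lower over all genes. All Het-Met libraries were below both WT libraries in 30% of the clock genes, against 9.89% over all genes. Without WT replicate 3 or Het-Met replicate 1, 0 of the estrogen receptor and related genes were lower, and without WT replicate 1, 4 clock genes were. Nrip1, a corepressor of nuclear receptors, stood at 22.9 and 25.1 CPM in WT and at 13.7, 24.6 and 16.7 CPM in Het-Met libraries. Crhbp, which binds and holds CRH, stood at 28.4 and 29.1 CPM against 26.2, 24.3 and 17.9 CPM. Per2, a repressor of the clock, stood at 64.5 and 62.5 CPM against 48.4, 50.2 and 51.6 CPM, a log2 difference of -0.34. Crhbp and Per2 did not overlap between genotypes. Of 20 immediate-early genes, which neurons switch on within minutes of firing, 0 were higher and 2 (10%) lower, with a median of -0.14. Without Het-Met replicate 3, 5 of them were lower. Egr1 stood at 134 and 126 CPM against 74.6, 81.8 and 118 CPM. Of 20 neuropeptide genes 1 (5%) was higher and 2 (10%) lower, the first being Penk, which encodes enkephalin, at 29.8 and 25.8 CPM against 37.6, 36.9 and 43.0 CPM.

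Markers of the choroid plexus, the epithelium that makes cerebrospinal fluid, were higher in Het-Met mice, and the difference rested in large part on WT replicate 1. All 22 markers passed the unadjusted p-value under 0.05 upwards, against 5.85% over all genes. Of them, 20 did not overlap (90.9%), against 14.8% over all genes, and the median log2 difference was 1.25. Kcnj13, a potassium channel of this epithelium, stood at 2.64 and 7.19 CPM in WT and at 20.5, 12.7 and 16.3 CPM in Het-Met libraries. Ttr, transthyretin, which carries thyroid hormone into the cerebrospinal fluid and was chosen after its values were seen, stood at 108 and 960.1 CPM against 3055, 1316 and 1734 CPM. As a ratio, Ttr differed more between the 2 WT libraries than it did between WT replicate 3 and any Het-Met library. Without WT replicate 1 the median was 0.61, and without WT replicate 3 it was 1.91. With DESeq2 on the recovered reads 8 of the 22 passed the unadjusted p-value upwards, as did 487 of all 15081 genes. Under E2 the order was the reverse, with summed levels of 3841 and 2858 CPM in WT and 2375, 835 and 574 CPM in Het-Met libraries. In bulk tissue, more cells of a type and more RNA per cell cannot be told apart, and how much choroid plexus each dissection held was not measured.

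Markers of other cells that line or cover the brain also had higher sums in Het-Met mice. Of 13 ependyma markers 6 (46.2%) were higher, against 5.85% over all genes. Their sums were 39.6 and 41.4 CPM in WT and 59.3, 46.3 and 52.9 CPM in Het-Met libraries. Without Het-Met replicate 1, 4 ependyma markers were higher, and the list median fell from 0.33 to 0.19. Foxj1, the master regulator of motile cilia, stood at 8.42 and 8.52 CPM against 12.3, 10.9 and 11.3 CPM. Of 20 meningeal and fibroblast markers 4 (20%), Myoc among them, were higher, and the list sums were 491 and 454 CPM against 610.0, 609 and 558 CPM. Igf2, a growth factor of meninges and choroid plexus, stood at 131 and 117 CPM against 191, 173 and 179 CPM. Pituitary markers were highest in WT replicate 3, with a sum of 98.1 CPM against 3.61 CPM in WT replicate 1 and 13.4, 13.4 and 5.19 CPM in Het-Met libraries. With the choroid plexus level as a covariate, 7 respiratory genes were higher, 16 ribosomal protein genes were higher and 2 lower, and Pla2g4e was still called.

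Markers of neurons and glia of the hippocampus differed less. Over all genes tested, 5.85% were higher and 4.83% lower at the unadjusted p-value. Of 15 pan-neuronal markers 1 (6.67%) was higher and 0 lower, of 16 astrocyte markers 1 (6.25%) and 0, and of 18 oligodendrocyte markers 0 and 2 (11.1%). Of 20 microglia markers 3 (15%) were higher and 0 lower, and of 20 endothelial and mural markers 2 (10%) and 2 (10%). Without Het-Met replicate 1, 0 microglia markers were higher, and without WT replicate 3, 6 oligodendrocyte markers were lower. Aif1, the microglial protein Iba1, stood at 4.63 and 6.05 CPM in WT and at 8.97, 8.12 and 6.21 CPM in Het-Met libraries. Rgs5, of pericytes, and Acta2, of smooth muscle, differed in opposite directions, at 45.8 and 47.3 CPM against 31.2, 37.8 and 32.9 CPM and at 21.5 and 16.1 CPM against 26.2, 27.9 and 24.7 CPM. Of 37 interferon and MHC class I genes 4 (10.8%) were higher and 1 (2.7%) lower, with 1 higher without Het-Met replicate 1. Psme1, a proteasome activator, stood at 22.9 and 24.9 CPM against 35.6, 32.6 and 29.4 CPM.

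By region, 3 of 10 dentate gyrus markers (30%) were higher and 0 lower, and 3 of 12 neocortical markers (25%) were lower and 0 higher. The shares over all genes were 5.85% higher and 4.83% lower. All 12 neocortical markers had a negative difference, with sums of 487 and 496 CPM in WT and 450.4, 456 and 415 CPM in Het-Met libraries. Cux2, of upper cortical layers, stood at 43.3 and 38.5 CPM against 29.5, 33.6 and 31.3 CPM, and Cplx3 at 15.3 and 12.3 CPM against 8.35, 10.5 and 7.42 CPM. These neocortical levels stand beside those of Tshz3, Tshz2 and Slc17a6 above, which are not on the neocortical list. The part of the neocortical levels in those results was not tested. With the choroid plexus covariate the neocortical median was -0.02 and 0 markers were lower. For the dentate gyrus, without Het-Met replicate 3 the median was -0.08, with 1 marker higher and 3 lower, and without WT replicate 3 it was 0.23, with 0 past the unadjusted p-value. Fibcd1, a marker of CA1, stood at 174 and 166 CPM in WT and at 204, 224 and 204 CPM in Het-Met libraries, a log2 difference of 0.31. Of the other region lists, 2 of 12 CA2 and CA3 markers (16.7%) were higher and 0 lower. For CA1 and subiculum, 1 of 9 markers (11.1%) was higher and 2 (22.2%) lower, and 2 of 11 striatal markers (18.2%) were higher and 0 lower. For the amygdala, 2 of 11 markers (18.2%) were higher and 2 (18.2%) lower, and for the thalamus and habenula 1 of 12 (8.33%) and 1 (8.33%). Slc17a6, named above for its small p-value, is counted as lower in both the CA1 and subiculum and the thalamus and habenula lists. Of 18 interneuron markers 1 (5.56%) was higher and 0 lower, and of 6 oligodendrocyte precursor markers 0 passed in either direction.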

How the data were processed

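RNA of the ventral hippocampus was sequenced from 10 libraries, and 5 of them, treated with vehicle, are compared here. After trimming and filtering, the authors used TopHat2 to align the 75-bp single-end reads to mm10, and deposited a CPM value for each gene symbol and library (reads per 1000000 counted on genes). The counting tool's settings, its use of strand included, are not given in the sources used here. Each library's values were whole multiples of its smallest value above 0, within 0.01 of a read, which returned the reads behind them. Positions and exon lengths came from GENCODE vM21 of GRCm38 (mm10), in which 23376 of 24421 symbols were found, another 670 through older symbols, and 375 were not.

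Values were analysed as log2(CPM + 0.5) for 15081 genes, those averaging 0.5 CPM or more over the 10 libraries. limma 3.58.1 in R 4.3.3 fitted the 4 group means with a variance trend on intensity (8.90 prior and 6 residual degrees of freedom), two-sided. Calls required p-values below 0.05 after Benjamini-Hochberg adjustment, and more than a 1.3-fold change. The difference between genotypes under 17β-estradiol (E2) and its difference from that under vehicle came from the same model, and so share its estimate of the spread. Genes named are Bdnf, called genes, the 12 higher and 12 lower genes with the smallest p-values (mean of at least 2 CPM, fold above 1.3, no overlap between vehicle groups, no provisional names), up to 4 of each gene list and 6 within 20 Mb of Bdnf. The members and lists were chosen with earlier results of these data known. Alternatives were other p-value and fold limits, pseudocounts, filters and scalings, edgeR 4.0.16 and DESeq2 1.42.0 on recovered reads, a replicate block, a choroid plexus covariate, the length trend of each library removed, and single libraries left out. The fit was tested on simulated data. Figures were drawn with matplotlib 3.10.9. Some genes that meet these rules are not reported here, and counts include them.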

Additional observations from a re-analysis of the deposited data

Results flagged for a closer look

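For 5 named genes, the difference between genotypes under vehicle was itself different from that under E2 (interaction term of the limma model, adjusted over all genes tested). For Slc2a12, a glucose transporter on the choroid plexus list, the log2 difference under E2 minus that under vehicle was -2.07 (SE 0.29, adjusted p = 0.0333). It was higher in all 3 Het-Met libraries under vehicle and lower in all 3 under E2, where it stood at 17.4 and 13.8 CPM in WT and at 8.61, 5.16 and 6.45 CPM in Het-Met libraries. The ciliary regulator Foxj1 had a value of -1.13 (adjusted p = 0.0454), and stood at 15.7 and 13.9 CPM against 10.4, 7.88 and 8.35 CPM under E2. The growth factor Igf2, on the meninges list, had -1.23 (adjusted p = 0.0454), with 239 and 199.9 CPM against 179.6, 123 and 113 CPM, and Prelp, a matrix protein on the same list, had -0.74 (adjusted p = 0.0393), with 75.9 and 78.3 CPM against 60.6, 50.4 and 57.5 CPM. The summed choroid plexus level ran the same way in these libraries, from 390.0 and 1684 CPM in WT to 4212, 2209 and 2844 CPM in Het-Met mice under vehicle, and from 3841 and 2858 CPM to 2375, 835 and 574 CPM under E2, and its part in these values was not tested.

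Fibcd1, a marker of CA1, is on no list of choroid plexus, ependyma or meninges. It had an interaction of -0.69 (SE 0.10, adjusted p = 0.0333), and stood under E2 at 202 and 213 CPM in WT and at 165, 148 and 164 CPM in Het-Met libraries. The groups did not overlap under either treatment, in opposite directions. The summed choroid plexus level had these same directions, and its part in the Fibcd1 values was not tested. Medians of the CA1 and subiculum list went the other way, at -0.13 under vehicle and 0.05 under E2.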

How the results depend on the processing

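The count of called genes was 1 under every setting except those given here. It was 2 in a fit of only the 5 vehicle libraries, which added Capn11, chosen after its values were seen, and 34 with DESeq2 on the recovered reads (9 higher, 25 lower). With an unadjusted p-value it was 496 with the fold limit (240 higher, 256 lower) and 1611 without it. With a library left out it lay between 1 and 2: Col6a4, chosen after its values were seen, was added without vehicle-treated WT replicate 1, Rxfp1 without WT replicate 3, Tshz2 without vehicle-treated Het-Met replicate 2, and Tshz3 without E2-treated Het-Met replicate 3. Pla2g4e was called under all of them. Among the 496, 48.4% were higher, against 38.1% with DESeq2 (138 higher, 224 lower) and 36.6% with the gene length trend removed (160 higher, 277 lower). The cause was not tested. With a replicate block, 1 gene was called and 571 passed the unadjusted p-value (303 higher, 268 lower). The main fit did not pair libraries by number. Deviations of same-numbered libraries had correlations between -0.172 and 0.0826, and those of differently numbered libraries between -0.151 and 0.172. The deviations of the 2 libraries of a WT group mirror each other, so these correlations cannot settle whether the numbers pair the libraries. Of the 125 named genes with an unadjusted p-value under 0.05 under vehicle, none changed direction under any setting. Choosing them by that p-value in the same libraries favours a stable direction, and named genes above it were not checked in this way. With 2 WT libraries, a difference in single genes rests on few pools, and values under 0.151 CPM are within 3 reads.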
